A study of Mus musculus with 6 samples.

Results

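The cytosolic ribosomal protein genes encode the proteins of the ribosomes that translate nuclear messages, and they were followed here across the cell types of obstructed mouse kidneys with and without the compound SH045. Members were the genes whose symbol is Rpl or Rps followed by a digit, together with Rplp0, Rplp1, Rplp2 and Rpsa, without names carrying -ps and without the Rps6k kinases. The rule gave 92 of 31276 genes, and all 92 were listed in each of the 6 gene tables. Of these, 77 are core ribosomal proteins (46 of the large and 31 of the small subunit), and 15 are paralogs or genes that only share the name. The libraries came from C57BL/6 mice with unilateral ureteral obstruction, a ligation of 1 ureter that drives inflammation and scarring, and cells of the obstructed kidney were taken 7 days after surgery. Both groups had the surgery: 3 libraries carried SH045 and 3 carried its Vehicle, each from a separate mouse, and the labels used here give no dose, age or sex. SH045 is tied by the series title to blocking TRPC6, a channel that lets calcium into cells. Contralateral kidneys and spatial samples were not analysed here.

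The cytosolic ribosome has a large subunit, which joins amino acids, and a small subunit, which reads the message. Nearly every core protein is present in a single copy, so cells make these proteins in step. Their messages are short, abundant and start with a run of pyrimidines (the TOP motif), through which growth signals by way of mTOR and LARP1 set how much of them is translated. Growing and dividing cells carry many of these messages.

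Cells of each library were profiled on Singleron GEXSCOPE beads, and each library's file held raw counts of unique molecular identifiers (UMIs) per gene and cell. Deposited depth was 21186872 to 32256602 UMIs per library, and 23578 of 25978 barcodes were kept. Cell types were gated by marker genes, none of them a member, and 90.3% of kept cells got a type. T cell markers, for example, summed to 52.2 to 73.2 UMIs per 10000 in T cells and 0.319 to 1.06 in macrophages. In 10 types every library held at least 30 cells, and fibroblasts, with as few as 21, were added after the data were seen. The library Vehicle 1 stood apart: haemoglobin took 2.86% of its UMIs against 0.0358 to 0.319% elsewhere, and it had the lowest ribosomal protein share in 10 of 11 types. Shares of T cells and core gene medians are given without it as well. Of all barcodes, 178 occurred in more than 1 library.

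Ribosomal protein genes took 13292113 of 138551088 UMIs, or 9.59%, and core genes held 98.3% of those. Rpl41, the shortest protein of the large subunit, gave the most at 496101 UMIs, followed by Rps27, a small-subunit protein with a zinc finger, at 478845 and Rpl32 at 420639. Per kilobase of the longest coding transcript the order was Rps27, Rps29, Rpl41, Rps28 and Rpl36. The core genes are short, with a median transcript of 937 bases (383 to 5179) against 2803.5 for all genes tested in whole-library sums, and 44 of the 77 lie under 1000 bases.

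A few core genes were nearly silent in these counts although each ribosome holds their protein. Rpl24 had 139 UMIs, Rpl13a 8473 and Rps6, the target of the S6 kinases, 15575, against a median of 142469 over core genes. In GENCODE M21 (mm10), 47.0% of the exon bases of Rpl24 (chromosome 16, 55966275 to 55971435) are shared with Gm28037 on the same strand, and 35.4% of those of Rpl13a with Gm45713 and small RNA genes. No other core gene shares as much, and Rps6 shares none. How overlapping genes and copies were counted is not given in the sources used here, so the levels of these genes are uncertain, as are those of any member with a close copy. Genes with -ps in the name, mostly copies of ribosomal protein genes, held 283156 UMIs, or 2.13 per 100 member UMIs.

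The share of UMIs in ribosomal protein genes differed 3.04-fold between the 11 cell types with enough cells. Among them it was highest in T cells, at 16.9 ± 2.37% (SD over 6 libraries), dendritic cells, 16.0 ± 1.48%, and monocytes, 14.7 ± 1.68%. Macrophages, the most numerous type, held 11.2 ± 0.857% and fibroblasts 10.8 ± 0.69%. Endothelial cells held 9.23 ± 0.395%, principal cells of the collecting duct 7.79 ± 0.795%, injured tubule cells 7.68 ± 0.676%, thick ascending limb 7.12 ± 0.659%, proximal tubule 6.44 ± 0.903% and intercalated cells 5.57 ± 0.404%.

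Some neighbours in this order did not differ beyond the spread. T cells exceeded dendritic cells in 4 of 6 libraries, macrophages exceeded fibroblasts in 4, and principal cells exceeded injured tubule cells in 3. Dendritic cells lay above monocytes, monocytes above macrophages, fibroblasts above endothelium and endothelium above principal cells in all 6 libraries. The remaining 3 steps down held in 5 of 6. The order runs from immune to stromal to tubule cells, and it is a description of shared libraries, with no test.

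**Figure D1:**
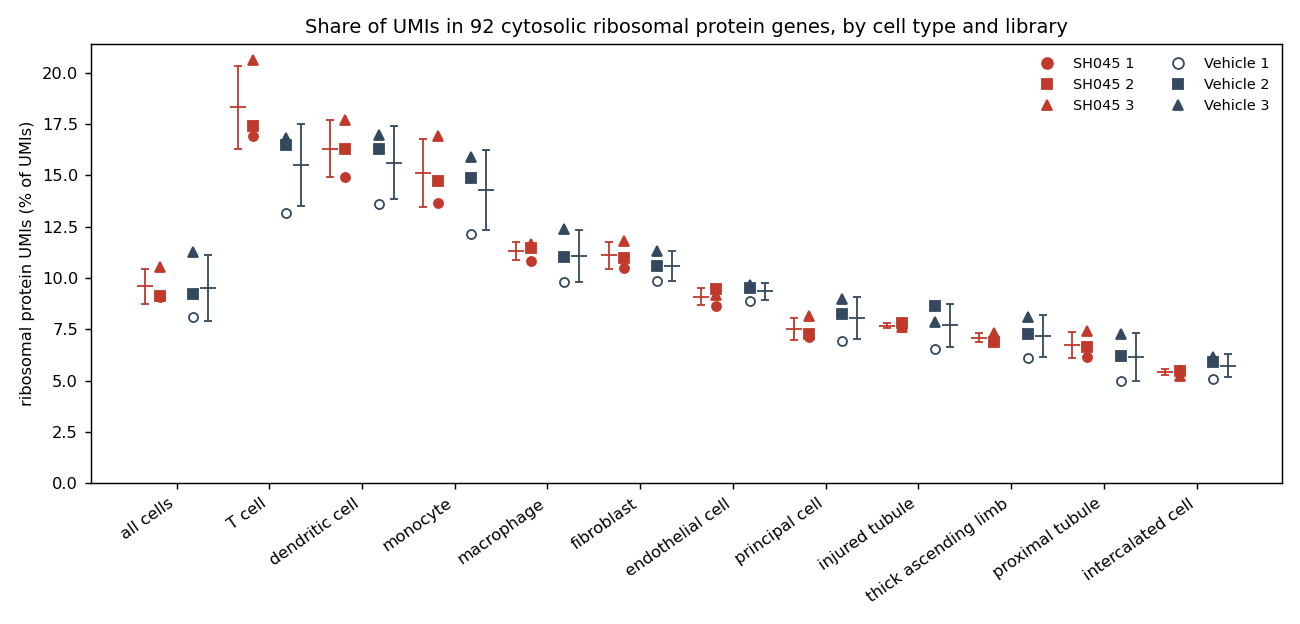
The vertical axis gives ribosomal protein UMIs as a percent of all UMIs for all cells and 11 cell types. Each point is a library, red for SH045 and dark for Vehicle (Vehicle 1 open), with the mean and SD of 3 libraries beside it; T cells sit highest, intercalated cells lowest, and the groups overlap in every type shown but T cells.

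SH045 and Vehicle kidneys had overlapping ribosomal protein shares in all but 1 of the 11 types described here. Over all cells SH045 1, 2 and 3 held 9.10, 9.12 and 10.6% while Vehicle 1, 2 and 3 held 8.08, 9.22 and 11.3%, and the Vehicle libraries hold both the lowest and the highest value. In macrophages they were 10.8, 11.4 and 11.7% against 9.83, 11.02 and 12.4%, again with Vehicle at both ends. In proximal tubule they were 6.13, 6.65 and 7.43% against 4.96, 6.18 and 7.27%, and in fibroblasts 10.5, 10.996 and 11.8% against 9.84, 10.6 and 11.3%. Intercalated cells were at 5.52, 5.47 and 5.23% against 5.10, 5.92 and 6.16%. On the log2 scale the ratio of group means ran from -0.10 in principal cells to 0.13 in proximal tubule, leaving out T cells. No p is given for a share, because the genes were chosen with results of these data known. Values for all cells combine the level in each type with the mix of types.

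Among these types T cells are the exception, by a small gap. The 3 SH045 libraries held 16.9, 17.4 and 20.6% and the 3 Vehicle libraries 13.2, 16.5 and 16.8%, with means of 18.3 ± 2.01 and 15.5 ± 2.02% (SD, n = 3) and a log2 ratio of 0.24. The lowest SH045 library, at 16.93%, lay just above the highest Vehicle library, at 16.85%. With cells typed by cluster in place of the gate the groups overlapped (16.9 to 19.7% against 13.8 to 17.2%), and so did the median over single T cells. Without Vehicle 1 the log2 ratio was 0.14.

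Other measures moved with these T cells. Mitochondrially encoded transcripts took 4.08, 4.21 and 4.70% of UMIs in the SH045 libraries against 2.46, 2.82 and 3.01% in the Vehicle libraries, which lie apart, and the ribosomal protein share without them still lay apart (17.7 to 21.6% against 13.5 to 17.4%). Haemoglobin was 1.59% of UMIs in the T cells of Vehicle 1 and at most 0.0072% in the others, but leaving haemoglobin out moved the Vehicle 1 share only to 13.4%. Median depth was 3524, 3241.5 and 2911 UMIs per T cell with SH045 and 3033, 5011 and 4182 with Vehicle. Summed markers of neutrophils were 1.16 to 4.67 UMIs per 10000 with SH045 and 0.0475 to 0.265 with Vehicle, and those of plasma cells 0.0142 to 0.288 against 0.342 to 22.6. Monocyte markers were also higher with SH045 (9.09 to 12.3 against 4.83 to 8.44), as were fibroblast markers (0.142 to 6.32 against 0.0326 to 0.0661), and dendritic markers were lower (0.131 to 0.721 against 0.869 to 1.24). The groups overlapped for the other 16 marker lists, T cell markers included (53.3 to 66.2 against 52.2 to 73.2). Their part in the difference was not tested.

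Gene by gene, the test asked which members differ between SH045 and Vehicle in the UMI sums of each library. It was edgeR's quasi-likelihood test with Benjamini-Hochberg adjustment over all genes tested in a cell type, called at 0.05, with n = 3 mice per group. Fitted log2 changes are on edgeR's own library scaling (TMM). They can differ from the ratio of the UMIs per 10000 printed beside them. Over all cells, 0 of 90 tested members were called, where 4.31% of all genes tested were called. At an unadjusted p under 0.05 there were 7 members, all lower with SH045, beside 26.7% of all genes, and DESeq2 called 5, all lower: Rps14, Rps27l, Rpl32, Rpl34 and Rpl7l1, where it called 11.9% of all genes. The lowest adjusted p belonged to Rpl7l1, a paralog of Rpl7, at 0.738, 0.749 and 0.807 UMIs per 10000 with SH045 and 0.811, 0.906 and 0.868 with Vehicle. All its SH045 libraries lay below all Vehicle libraries, but the log2 change of -0.41 ± 0.11 (SE) did not pass (adjusted p = 0.0699, edgeR). Among members with a positive change, Rpl12, at the base of the ribosomal stalk, had the smallest p (log2 change 0.26 ± 0.18, adjusted p = 0.383, edgeR).

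In macrophages 1 of 87 tested members was called, where 10.7% of all genes tested were called (5.84% higher, 4.83% lower). It was Rps27l (chromosome 9, 66946086 to 66949516, plus strand, mm10), a paralog of Rps27 whose gene is a known target of the tumour suppressor p53. Its level was 3.28, 3.74 and 3.44 UMIs per 10000 in the SH045 libraries 1 to 3 and 4.63, 4.59 and 4.43 in the Vehicle libraries 1 to 3. Every SH045 library lay below every Vehicle library, Vehicle 1 was not apart from its group, and Rps27l had a log2 change of -0.54 ± 0.13 (adjusted p = 0.0223 by edgeR). DESeq2 called Rps27l, Rps18 and Rpl34 in these sums, all lower, and 10.7% of all genes.

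The call of Rps27l was not stable. It ended without SH045 1, SH045 3, Vehicle 1 or Vehicle 2 (adjusted p = 0.0651, 0.0835, 0.0693 and 0.0873) and stayed without SH045 2 or Vehicle 3, with a log2 change from -0.65 to -0.46 over the 6 fits. It also ended with macrophages typed by cluster (-0.41, adjusted p = 0.0593) and with the trend on transcript length removed (-0.31, adjusted p = 0.107). Across its alternatives the adjusted p ran from 0.000885 to 0.171, all by edgeR but the lowest, which is DESeq2's.

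The fitted change of Rps27l was negative in 11 of 11 cell types, and its SH045 libraries lay below its Vehicle libraries in 5 of them. Of all genes tested, 4.29 to 11% lay below in this way, by type. In T cells it was 3.72, 3.63 and 2.78 UMIs per 10000 with SH045 and 4.56, 5.27 and 4.57 with Vehicle (log2 change -0.52 ± 0.17, adjusted p = 0.198, edgeR). In proximal tubule it was highest of all types, at 7.93, 8.79 and 8.41 against 7.40, 8.70 and 10.4, with groups that overlap. Types come from the same mice, so these are not independent repeats. Beside macrophage Rps27l, marker sums in the macrophages also lay apart between the groups for 4 of 21 lists: dendritic cells (1.08 to 1.74 with SH045 against 2.02 to 2.79 UMIs per 10000), neutrophils (1.13 to 5.11 against 0.743 to 0.955), natural killer cells (0.0714 to 0.314 against 0.0348 to 0.0536) and B cells (0.734 to 0.894 against 0.519 to 0.733). The mitochondrially encoded share also lay apart (3.53 to 3.90% against 2.58 to 3.41%), and their part in the result was not tested.

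**Figure D2:**
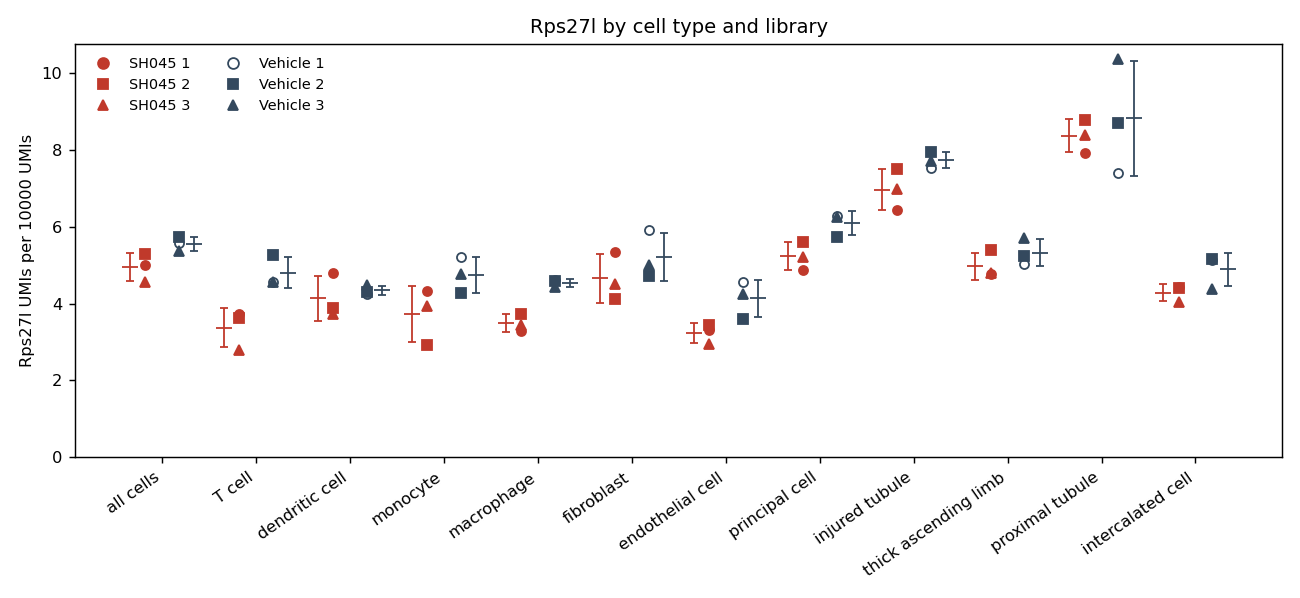
The vertical axis gives Rps27l UMIs per 10000 UMIs in all cells and 11 cell types, 1 point per library, with the mean and SD of 3 libraries per group. In macrophages the SH045 points sit at 3.28 to 3.74 and the Vehicle points at 4.43 to 4.63, and the highest levels are in proximal tubule.

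The sequences show whether Rps27l can be told from its relatives. The coding sequences are those of 1 transcript of each gene in GENCODE M21, with bases that differ from Rps27 in capitals.

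Rps27: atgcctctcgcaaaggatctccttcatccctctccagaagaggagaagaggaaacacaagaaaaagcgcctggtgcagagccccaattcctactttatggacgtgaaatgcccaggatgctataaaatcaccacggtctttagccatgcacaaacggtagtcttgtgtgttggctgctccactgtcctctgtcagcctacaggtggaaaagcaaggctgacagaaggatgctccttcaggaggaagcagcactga

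Rps27l: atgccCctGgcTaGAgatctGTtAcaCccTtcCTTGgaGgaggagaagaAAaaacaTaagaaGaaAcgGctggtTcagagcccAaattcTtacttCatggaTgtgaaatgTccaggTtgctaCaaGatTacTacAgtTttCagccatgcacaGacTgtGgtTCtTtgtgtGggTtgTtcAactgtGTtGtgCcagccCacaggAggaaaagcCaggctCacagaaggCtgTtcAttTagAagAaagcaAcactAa

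Rps27rt: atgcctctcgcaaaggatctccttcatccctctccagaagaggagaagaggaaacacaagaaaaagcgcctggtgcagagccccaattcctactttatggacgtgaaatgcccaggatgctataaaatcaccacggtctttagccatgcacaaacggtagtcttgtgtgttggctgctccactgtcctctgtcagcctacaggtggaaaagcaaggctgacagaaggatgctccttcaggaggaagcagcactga

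Rps27l differs from Rps27 at 61 of 255 coding bases (76.1% identity), and over their whole transcripts the longest stretch the 2 genes share is 11 bases. Rps27rt, by contrast, has 0 differences from Rps27 over the 255 bases and shares a run of 341 bases with it, so reads of Rps27 and Rps27rt cannot be told apart over most of their length. Rps27rt was given 14510 UMIs and Rps27 478845, and the split between them is uncertain. In macrophages Rps27 stood at 36.6, 48.1 and 45.4 UMIs per 10000 with SH045 and 42.2, 44.7 and 53.0 with Vehicle, groups that overlap, and it did not pass (log2 change -0.26 ± 0.16, adjusted p = 0.297, edgeR).

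The other like-named genes fall into those with a sequence of their own and those without. Rpl22l1, the paralog of Rpl22, shares at most 26 bases in a row with it, Rpl36al 24 with Rpl36a, Rps4l 38 with Rps4x, Rpl39l 38 with Rpl39, Rpl3l 22 with Rpl3 and Rpl7l1 22 with Rpl7. Rpl37rt shares 257 with Rpl37, Rps3a2 317 and Rps3a3 215 with Rps3a1, Rpl6l 354 with Rpl6, Rpl32l 94 with Rpl32 and Rps12l1 399 with Rps12, so their counts and part of those of their partners are uncertain. Rps19bp1, at 10472 UMIs, is a binding protein of Rps19 and no ribosomal protein. Among the 15 genes, UMIs ran from 52 for Rps12l1 to 73470 for Rps27l, and 5 had under 1000 (Rpl6l, Rpl3l, Rps3a3, Rpl39l and Rps12l1).

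As shares of member UMIs, the ribosomal protein messages varied between cell types mainly in these paralogs. The member total itself differed 3.04-fold between types. A gene at a constant level per 10000 UMIs would therefore also vary on this scale. Rps4l, a copy of Rps4x listed as a transcribed processed pseudogene, was 0.25 ± 0.037% of member UMIs in intercalated cells (SD over 6 libraries) and 0.00725 ± 0.00351% in T cells, a ratio of 34.5. Per 10000 UMIs Rps4l ran from 1.09 to 1.65 over the 6 libraries in intercalated cells and from 0.0329 to 0.199 in T cells, with no overlap. The T cell values lie near the floor, so the size of the ratio is uncertain. Rps4l had enough counts to be tested in 9 of 11 types. Rps27l was 1.35% of member UMIs in proximal tubule against 0.25% in T cells, and Rpl22l1 was 0.617% in fibroblasts against 0.194% in dendritic cells. Per 10000 UMIs, Rps27l differed less between proximal tubule and T cells, as its levels given above show. Rps19bp1 differed 4.20-fold and Rpl7l1 2.73-fold.

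Core genes held steadier shares, with a median ratio of 1.41 between the highest and the lowest type, under 1.5 for 49 of the 77 and over 2 for 3. Among those 3 were Rpl13a (2.81-fold, fibroblasts over intercalated cells, with the overlap noted above) and Rps29 (2.08-fold). Rps29, a short zinc-binding protein of the small subunit, was 3.64 ± 0.485% in macrophages and 1.75 ± 0.264% in injured tubule, with libraries apart at 2.88 and 2.03%. The means of Rps4l were 0.00725 to 0.0186% in the 4 immune types and 0.0759 to 0.25% in the 5 tubule types.

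**Figure D3:**
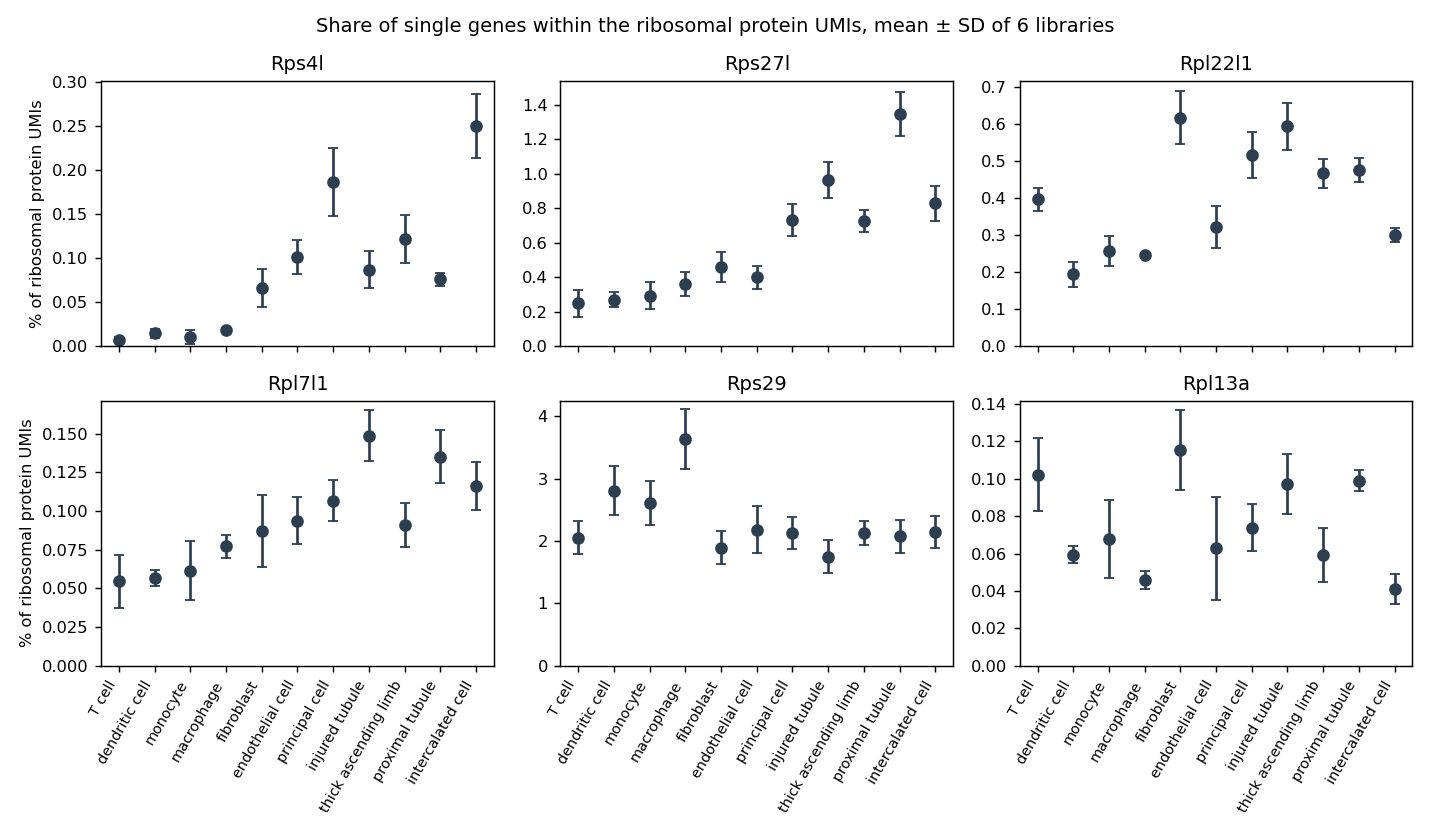
Each panel gives 1 gene's share of the ribosomal protein UMIs (percent) in 11 cell types, as the mean and SD of 6 libraries. Rps4l goes from 0.00725% in T cells to 0.25% in intercalated cells, Rps27l peaks in proximal tubule, and Rps29 peaks in macrophages.

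In the other 10 types no member was called by edgeR. The shares of all genes called there were 0.0297% in monocytes, 0.492% in dendritic cells, 0.742% in T cells, 0% in proximal tubule, 0.738% in injured tubule, 0.132% in thick ascending limb, 2.69% in principal cells, 2.15% in intercalated cells, 0.859% in endothelium and 0.0973% in fibroblasts. At an unadjusted p under 0.05 by edgeR there were 12 of 85 members in T cells (10 higher, 2 lower), beside 12.3% of all genes, and 12 of 85 in intercalated cells (2 higher, 10 lower), beside 18%. Macrophages had 7 of 87, beside 28.4%. The counts were 3 in monocytes (8.83% of all genes), 5 in dendritic cells (13.5%), 2 in proximal tubule (11.1%), 2 in injured tubule (17.3%), 2 in thick ascending limb (12.3%), 4 in principal cells (18.3%), 2 in endothelium (14.7%) and 6 in fibroblasts (9.34%). DESeq2 called 1 member among these types, Rps18 in intercalated cells, lower, where it called 1.39% of all genes. On simulated libraries with the depth and spread of the macrophages, 90% of 20 members changed 2-fold and 25% of 20 changed 1.5-fold were recovered. For T cells these shares were 45% and 15%, for proximal tubule 85% and 5%, and for the sums over all cells 20% and 0%. False calls made up 9.78% of the calls in macrophages, 8% in T cells, 13.43% in proximal tubule and 14.29% over all cells. These simulated libraries carried no trend on transcript length, although the data do, as given below. Their genes also varied independently of each other. Rates for libraries with such a trend are not reported here. Smaller changes were not simulated.

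Beside Rps27l, which was lower in macrophages and T cells as given above, the member with the smallest p in each direction is given for each type, and none of these passed (edgeR). Higher with SH045 were Rps12 in monocytes (0.61 on the log2 scale, adjusted p = 0.458) and thick ascending limb (0.39, adjusted p = 0.489), and Rpsa in dendritic cells (0.54, adjusted p = 0.143) and T cells (0.56, adjusted p = 0.282). Rpl12 took that place in macrophages (0.35), principal cells (0.22), intercalated cells (0.41) and endothelium (0.43). Rps20, which sits in the head of the small subunit, took it in fibroblasts (0.44, adjusted p = 0.495), and Rps3a2, with its long run shared with Rps3a1, in proximal tubule (0.54, adjusted p = 0.38) and injured tubule (1.05, adjusted p = 0.121). In injured tubule Rps3a2 was 0.364, 0.427 and 0.371 UMIs per 10000 with SH045 and 0.228, 0.169 and 0.158 with Vehicle, with no overlap. Lower were Rpl34 in injured tubule (-0.42) and thick ascending limb (-0.39), Rps18 in intercalated cells (-0.44, adjusted p = 0.0981), Rpl22l1 in principal cells (-0.42), Rps2 in endothelium (-0.38), Rpl7l1 in proximal tubule (-0.23), Rps19bp1 in dendritic cells (-0.71) and fibroblasts (-0.41), and Rps27l in monocytes (-0.36). With 1 library left out some of these values moved far: Rps19bp1 ran from -0.66 to -0.014 in fibroblasts and from -1.08 to -0.54 in dendritic cells, Rps12 from 0.14 to 0.58 in thick ascending limb and from 0.39 to 0.75 in monocytes, and Rpsa from 0.32 to 0.74 in T cells.

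The direction of the core genes differed by type. In T cells 73 of 76 tested core genes had a positive log2 change, with a median of 0.27 beside 0.00 for all genes tested. Fibroblasts had 62 of 76 (median 0.16, and 0.07 without Vehicle 1) and monocytes 54 of 76 (median 0.11, and -0.05 without Vehicle 1). Over all cells 69 of 77 were negative, with a median of -0.15, and in principal and intercalated cells 59 of 76 each, with medians of -0.11. These signs hold on the TMM scale of each fit. As a share of UMIs the log2 ratio of the members was 0.01 over all cells. In macrophages it was 0.03, where the core median was -0.06. The negative medians over all cells and in macrophages are therefore no fall in the share of UMIs. Large and small subunit genes moved alike, with medians of 0.26 and 0.28 in T cells and -0.07 and -0.06 in macrophages. The SE of a single core gene was typically 0.14 to 0.21 (medians by type). In T cells the core median of 0.27 exceeded the median SE of 0.20, but without Vehicle 1 the core median was 0.15. In the other types and over all cells the core median was nearer to 0 than the median SE. That SE belongs to a single gene. It does not measure the error of a median over core genes that share libraries, so the comparison is no test of the family.

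By role, the stalk proteins, which recruit the elongation factors, differed among themselves in T cells. Rplp1 was 43.7 ± 4.36 with SH045 and 32.1 ± 4.54 UMIs per 10000 with Vehicle (SD, n = 3), Rplp2 29.6 ± 2.59 against 21.1 ± 4.95, and Rplp0 35.8 ± 1.65 against 33.1 ± 4.43. Their log2 changes were 0.44, 0.48 and 0.11, the last below the core median, and none passed (adjusted p = 0.341, 0.328 and 0.846, edgeR). Rpl3, which lines the catalytic centre, was 8.79 ± 1.48 against 6.38 ± 0.681, and Rps3, at the entry of the message channel, 27.5 ± 2.77 against 22.2 ± 1.23. Rpl4 was at 18.5 ± 0.741 against 16.6 ± 2.64, Rps2 at 42.9 ± 2.65 against 44.8 ± 7.98 and Rps6 at 2.55 ± 1.06 against 2.05 ± 0.519, with groups that overlap. The short proteins Rpl37, Rpl38, Rpl39, Rpl41, Rps21, Rps28 and Rps29 had log2 changes from 0.07 to 0.28 in T cells, and none passed. Rpl22, a large-subunit protein that also binds RNA, was 10 ± 0.687 against 8.74 ± 1.52 in T cells (adjusted p = 0.735, edgeR). In macrophages the stalk proteins Rplp0, Rplp1 and Rplp2 had log2 changes of -0.16, 0.06 and 0.02, and none passed.

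Per 10000 UMIs, 29 of 85 tested members of T cells had all SH045 libraries above all Vehicle libraries and 2 had them below, where 9.34 and 8.86% of all genes tested did so. Monocytes had 14 of 84 above (8.03% of all genes) and 0 below (6.33%), and dendritic cells 18 of 85 above (15.4%) and 0 below (5.39%). Fibroblasts had 12 of 85 above (6.78%) and 2 below (9.64%). In macrophages 10 of 87 lay above, with 28.2% of all genes, and 3 below, with 8.74%. Over all cells 4 of 90 lay above (34.8%) and 2 below (4.92%). Proximal tubule had 8 of 87 above (15.2%) and 0 below (4.29%), injured tubule 4 above (14.2%) and 2 below (8.55%), thick ascending limb 3 above (14.4%) and 5 below (5.71%), and endothelium 11 above (11.3%) and 8 below (8%). Principal cells had 0 of 85 above (13%) and 13 below (11%), and intercalated cells 1 above (12.8%) and 13 below (9.46%). Members share their libraries and rise or fall together with the total share, so these counts are not separate pieces of evidence. Without Vehicle 1 every core median was lower. It turned from 0.11 to -0.05 in monocytes, from 0.02 to -0.10 in dendritic cells and from 0.05 to -0.06 in proximal tubule. It went from 0.27 to 0.15 in T cells, from 0.16 to 0.07 in fibroblasts, from -0.15 to -0.26 over all cells, from -0.06 to -0.16 in macrophages and from -0.02 to -0.15 in injured tubule. In thick ascending limb, principal cells, intercalated cells and endothelium it was -0.16, -0.19, -0.18 and -0.11.

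**Figure D4:**
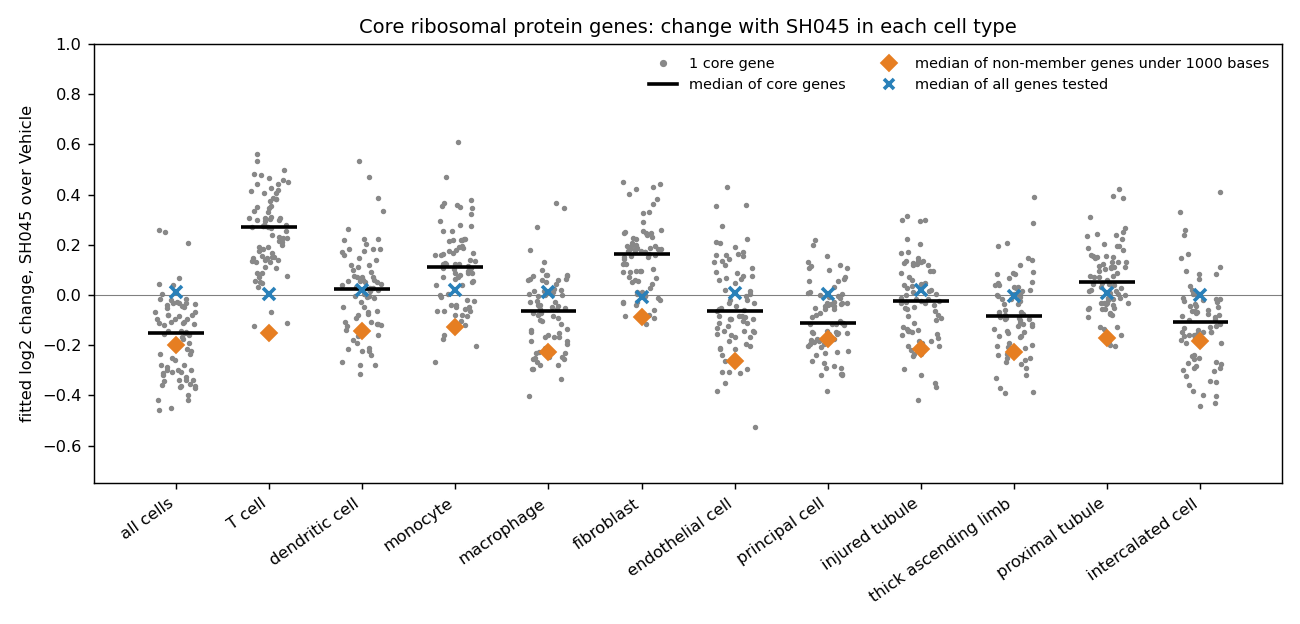
Each grey point is the fitted log2 change (SH045 over Vehicle) of 1 core gene in all cells or in 1 of 11 cell types. The black bar is the core genes' median and the orange diamond that of non-member genes under 1000 bases. The blue cross is the median of all genes tested. With all 6 libraries the bar is highest in T cells at 0.27 and lies above the diamond in every type.

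Transcript length moved with the groups across the whole table, which bears on short messages such as these. Over all cells, longer non-member genes had the higher log2 changes (Spearman 0.45 across 16442 genes, a description since genes share libraries), and the 1892 non-member genes under 1000 bases had a median change of -0.20. In macrophages that median was -0.23, in proximal tubule -0.17 and in T cells -0.15. With all 6 libraries, core genes lay above such short genes in each of the 11 types and over all cells. Without Vehicle 1 the core median lay below the short-gene median over all cells (-0.26 against -0.18) and in principal cells (-0.19 against -0.09). The same held in intercalated cells (-0.18 against -0.14) and thick ascending limb (-0.16 against -0.14). Among the core genes themselves, length and change were not related (Spearman -0.02 to 0.12 by type).

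With the length trend of non-members removed from each library, the core medians moved up. They went from -0.15 to 0.01 over all cells, from -0.06 to 0.14 in macrophages, from 0.05 to 0.23 in proximal tubule and from 0.27 to 0.39 in T cells. In endothelium, injured tubule, thick ascending limb, principal cells and intercalated cells the core median went from negative to between 0.08 and 0.19, so the direction of the family in those types, in macrophages and over all cells depends on this setting. Members called after removal were Rpl3 in dendritic cells (0.66 ± 0.15, adjusted p = 0.0483) and Rpl12 in intercalated cells (0.62 ± 0.15, adjusted p = 0.0278), both higher by edgeR, where 0.458 and 1.34% of all genes were called in these fits. Whether the length trend is technical was not tested.

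The same members took the ends of the order in most types. Rpl12, Rps12 and Rpsa, the laminin-receptor protein of the small subunit, were among the 10 highest of 76 core genes in 11 of 11 types, with log2 changes of 0.19 to 0.50, 0.20 to 0.61 and 0.13 to 0.56. At the other end, Rps18 was among the 10 lowest in 10 types (-0.44 to 0.03), Rpl34, Rpl15 and Rps27 in 9 and Rpl32 in 8. None of these passed the test of edgeR on its own, and types share mice and libraries.

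In macrophages Rps12 was 8.83, 7.24 and 8.60 UMIs per 10000 with SH045 and 4.11, 5.98 and 7.004 with Vehicle (log2 change 0.37 ± 0.17, adjusted p = 0.166, edgeR). Rpsa was 11.5, 8.60 and 9.72 against 5.93, 7.71 and 8.34 (0.27 ± 0.15, adjusted p = 0.237). Both had SH045 libraries above all Vehicle libraries, with SH045 1 high and Vehicle 1 low. Rps18 was 16.9, 20.5 and 21.9 against 23.7, 21.7 and 25.1, where SH045 3 lies above Vehicle 2 (-0.40 ± 0.15, adjusted p = 0.0921, edgeR). As a share of member UMIs, a scale on which the total cancels, macrophage Rps12 was 0.815, 0.632 and 0.738% against 0.418, 0.543 and 0.566%, and Rps18 was 1.56, 1.80 and 1.88% against 2.41, 1.97 and 2.03%. On that scale the groups did not overlap for Rps12 and Rps18 in 8 types each and for Rpsa and Rpl12 in 7 each, always in the same direction. Per 10000 UMIs Rps12, Rps18, Rpsa and Rpl12 lay apart in 4, 3, 7 and 5 types. These genes are described for their place in fits of the same libraries, so the counts are no separate evidence. The share of all members that lay apart as a share of member UMIs is not given here.

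**Figure D5:**
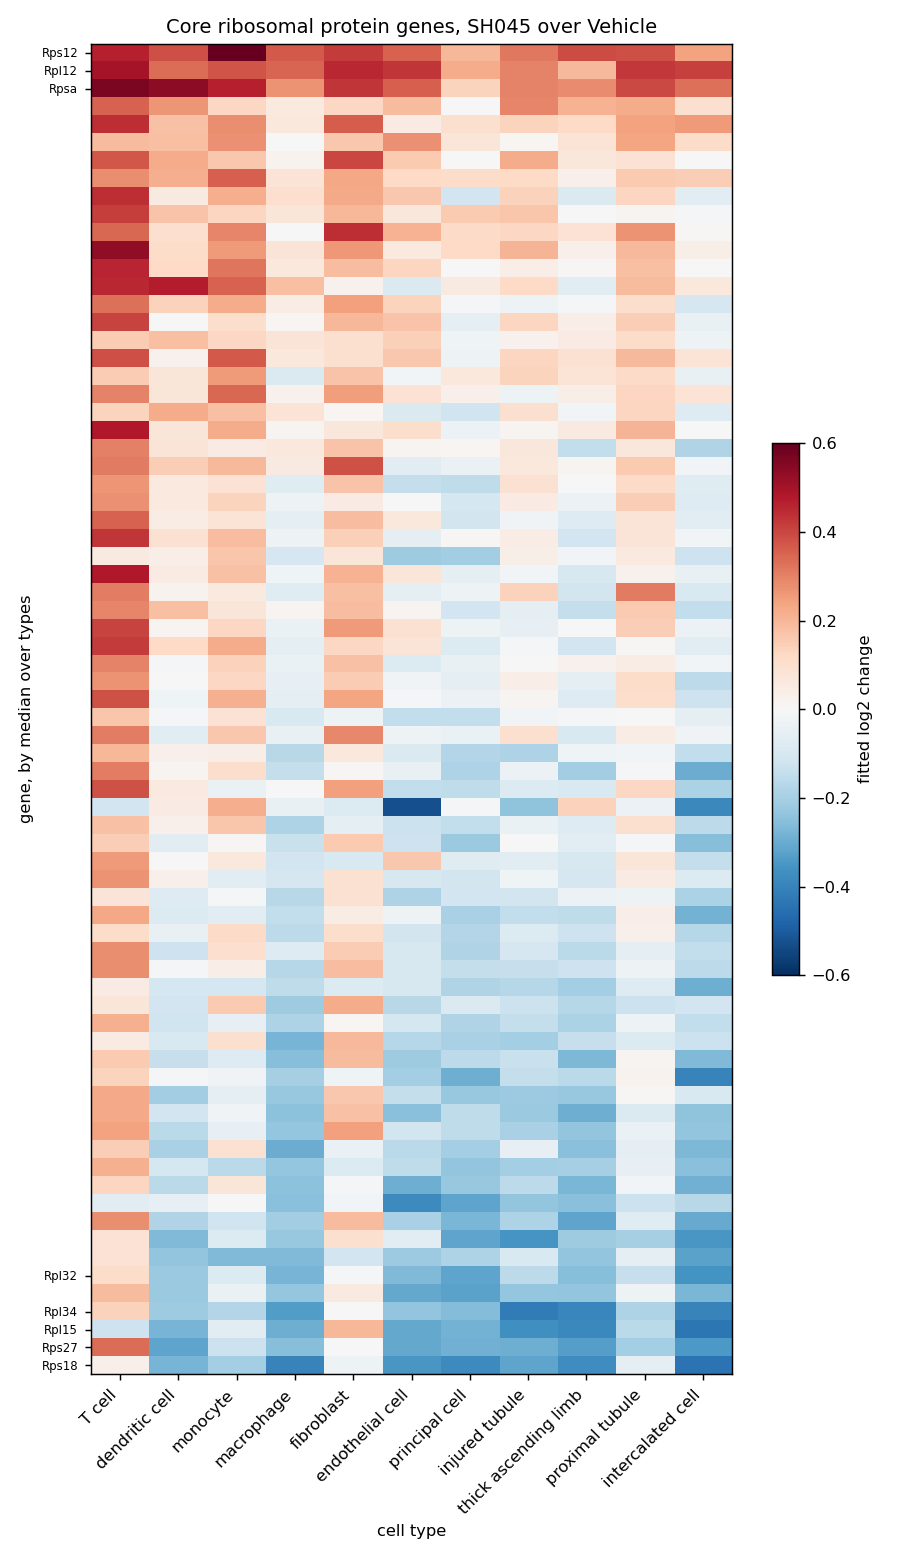
Rows are core genes tested in every type, ordered by their median over types, with the genes described in the text named, columns the 11 cell types, and colour the fitted log2 change of SH045 over Vehicle (red higher, blue lower). Rps12, Rpl12 and Rpsa are red in every column, Rps18 is blue in 10 of 11, and the T cell column is nearly all red.

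Start sites are shown for these genes, since the TOP motif lies there. The windows run from 20 bases before to 20 after the RefSeq start (GRCm38.p6, transcribed strand), and capitals mark the longest run of at least 8 pyrimidines that begins with C. Rpsa is at chr9:120127746-120127785 (plus strand), Rps12 at chr10:23787190-23787229 (minus), Rpl12 at chr2:32961692-32961731 (plus), Rps18 at chr17:33955646-33955685 (minus), Rps27 at chr3:90213629-90213668 (minus) and Rpl15 at chr14:18270967-18271006 (minus).

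Rpsa: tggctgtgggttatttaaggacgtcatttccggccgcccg

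Rps12: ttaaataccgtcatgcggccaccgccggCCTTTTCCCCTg

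Rpl12: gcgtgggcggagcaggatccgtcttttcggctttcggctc

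Rps18: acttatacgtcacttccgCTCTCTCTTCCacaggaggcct

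Rps27: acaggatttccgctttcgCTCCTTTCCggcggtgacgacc

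Rpl15: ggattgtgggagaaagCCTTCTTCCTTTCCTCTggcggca

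Rps18, Rps27 and Rpl15 of the low end hold a run of 11, 9 and 17 bases, Rps12 of the high end holds 11, and in Rpsa and Rpl12 no such run lies in this window. Rps2, which was among the 10 lowest in 7 types, holds none either. The cut at 8 bases leaves shorter runs unmarked, such as that in the Rpl12 window. Rpl34 of the low end, whose windows are not printed, holds runs of 8 and 20 bases. RefSeq windows were at hand for 57 of the 77 core genes (67 windows), and 43.3% of them hold such a run on the transcribed strand against 12.5% of the 32770 other windows. On the opposite strand the shares are 5.97 and 13.7%. In a window of 50 bases on each side they are 80.6 and 28.7% on the transcribed strand and 20.9 and 31.6% on the opposite strand. A match describes letters and no working motif.

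Whether the effect of SH045 differs between cell types was tested with macrophages as the reference, in edgeR fits with the library as a block. In 9 of the 10 comparisons no member was called. For T cells minus macrophages 0 of 87 were called, with 0.0685% of all genes called, while 54 had an unadjusted p under 0.05, all in the direction of T cells, beside 7.41% of all genes. The median difference of the members was 0.35 there, beside 0.01 for all genes. For fibroblasts minus macrophages 3 of 87 were called, Rpl41, Rps26 and Rpl5, with 0.352% of all genes called, while 59 had an unadjusted p under 0.05 beside 9.51% of all genes. The median over all genes in that fit was itself 0.23, and that of the members 0.43. In the 8 remaining comparisons 0 members were called, where 0.457% (monocytes), 0.583% (dendritic cells), 0% (proximal tubule), 0.0866% (injured tubule), 0.331% (thick ascending limb), 1.2% (principal cells), 0.57% (intercalated cells) and 0.114% (endothelium) of all genes were.

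Other genes of translation were set beside the family from lists. Over all cells, of 25 elongation factors and other TOP transcripts none was called, and of 32 initiation factors 1 and of 65 ribosome biogenesis genes 2 were lower, where 4.31% of all genes were called and 1.36% were lower. Tpt1, a TOP transcript of growing cells, was 12.8, 9.01 and 11.9 UMIs per 10000 with SH045 and 4.94, 7.21 and 8.81 with Vehicle, with SH045 above Vehicle in every library, and did not pass (0.44 ± 0.22, adjusted p = 0.239, edgeR). Eef2, the translocation factor, was 6.98 ± 1.30 against 4.77 ± 0.54 (SD, n = 3, adjusted p = 0.244) and Rack1, a scaffold on the small subunit, 6.68 ± 0.887 against 5.13 ± 0.754 (adjusted p = 0.582). Eef1a1 was 5.27 ± 1.65 against 4.40 ± 1.67. Larp1, which binds TOP messages, was 0.759 ± 0.109 against 0.517 ± 0.0386 (0.31 ± 0.12, adjusted p = 0.137, edgeR), and Myc, which drives ribosome production, 0.308 ± 0.0538 against 0.334 ± 0.0757. Fau, whose product carries a small-subunit protein, was 16.6 ± 2.87 against 16.7 ± 4.53. The nuclear RNAs Malat1 and Neat1 were 159.7 ± 3.62 against 123.1 ± 17.6 and 0.76 ± 0.174 against 0.681 ± 0.106, and neither passed.

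The mitochondrial ribosome, which translates the genes of the organelle, was set beside the family in macrophages. Of 79 measured mitochondrial ribosomal protein genes 27 fell and 0 rose (edgeR, where 4.83% of all genes fell), with a median of -0.37 and a median transcript of 1316 bases. Of 77 nuclear respiratory chain subunits 17 fell and 0 rose, with a median of -0.39. Cytosolic ribosomal proteins had 1 of 87 lower and a median of -0.07. With the length trend removed 6 mitochondrial ribosomal protein genes and 2 respiratory chain subunits fell, where 1.96% of all genes did, with medians of -0.22 and -0.17 against 0.13 for the cytosolic members. In types with 0 members of the list called, the medians for mitochondrial ribosomal proteins ran from -0.33 (injured tubule) to -0.17 (fibroblasts). Those for the respiratory chain in such types ran from -0.34 (proximal tubule) to -0.07 (principal cells). With the length trend removed, the mitochondrial ribosomal medians in these types ran from -0.20 (monocytes) to -0.10 (T cells). The respiratory chain medians then ran from -0.16 (fibroblasts) to 0.15 (principal cells). They were positive in injured tubule (0.03) and principal cells, and negative in the other types. The part of the mitochondrially encoded share of macrophages, which lay apart between the groups as given above, was not tested. These medians are descriptions of each list, and the difference between the lists was not tested.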

How the data were processed

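UMI counts per gene and cell barcode were deposited by the authors as 1 raw matrix per library. Per the submitters' processing notes the build was mm10, and the aligner, counter, annotation and cell calling are not given in the sources used here. Barcodes with at least 200 genes and at most 50% mitochondrially encoded UMIs were kept. A cell got the type with the most detected markers, at least 2 and more than any other type. Doublets were kept, and an alternative dropped the top 5% by Scrublet score. UMIs were summed per library and type and compared with edgeR 4.0.16 (TMM, default low-count filter, robust quasi-likelihood) under R 4.3.3, with DESeq2 1.42.0 and scanpy 1.11.5 (Leiden clusters) as alternatives. Transcript lengths are the longest coding transcripts of GENCODE M21, and the length trend is a natural spline with 5 degrees of freedom. The steps were tested on simulated data. The members and lists were chosen with earlier results of these data known. Named genes followed a rule: in each type the called members with the largest changes, or else the smallest p in each direction, a fixed set of core genes and all paralogs, those with most and fewest UMIs or the most uneven shares, and a set of genes outside the family. Some genes under this rule are not reported here. Of the text, Rps14, Rpl32, Rpl15, Rpl36, Rps26 and Rpl5 were named after their values were seen. Libraries within a group are separate mice per the design text.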

Additional observations from a re-analysis of the deposited data

Results flagged for a closer look

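The effect of SH045 differed between fibroblasts and macrophages for 3 ribosomal protein genes by edgeR's test of the difference. The difference on the log2 scale was 0.67 ± 0.16 for Rps26 (SE, adjusted p = 0.0457), 0.66 ± 0.16 for Rpl5, which binds the 5S RNA of the large subunit (adjusted p = 0.0459), and 0.63 ± 0.14 for Rpl41 (adjusted p = 0.0334), all higher in fibroblasts. The median difference over all genes in that fit was itself 0.23, and 0.352% of all genes were called. The smallest fibroblast library held 21 cells. With DESeq2's size factors in edgeR none was called (adjusted p = 0.266, 0.266 and 0.242), and with 1 library left out the adjusted p ran from 0.0587 to 0.194, from 0.0297 to 0.379 and from 0.0296 to 0.276. No explanation was tested.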

How the results depend on the processing

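Of 85 recomputed share ratios, 84 moved by less than 1 SD between replicates, and the other was endothelium with the median over cells (log2 ratio -0.11). All 72 with 1 library left out did too. Counts of called members moved in these settings: DESeq2 called 5 over all cells, 3 in macrophages and 1 in intercalated cells. With the length trend of non-members or of all genes removed, alone or with the replicate block, the count was 0 in macrophages and 1 in intercalated cells, and in dendritic cells it was 1, or 2 with the block. Typing macrophages by cluster gave 0. With 1 library left out the count ran from 0 to 2 in macrophages, 0 to 2 in dendritic cells and 0 to 2 for fibroblasts minus macrophages, which DESeq2 size factors took to 0. The replicate block added Rps12 in monocytes, a count of 1. Whether same-numbered libraries pair is not settled. Over all cells r was 0.027, 0.09 and 0.262 for them and -0.197 to 0.118 for libraries of different number. Replicate numbers may only be names, so the block is not read as a paired analysis. Leaving out haemoglobin genes and testing fibroblasts were chosen after seeing the data. The number of cells limits depth, with as few as 37 monocytes, 32 endothelial cells and 21 fibroblasts in a library.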

Other observations

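Types too rare for a test had these ribosomal protein shares. B cells and natural killer cells, each down to 4 cells in the smallest library, were at 19.95 ± 3.23% and 19.1 ± 4.69% of UMIs (SD over 6 libraries), above the tested types. Plasma cells, which pour most of their messages into antibody, were at 6.19 ± 2.39% with 7.78 ± 2.50% in SH045 and 4.59 ± 0.699% in Vehicle (SD, n = 3) and no overlap between the groups, in 13 to 103 cells a library. Urothelial cells, with 3 to 21 cells, were at 14.2 ± 3.39%, above the tubule types, and cells of the distal convoluted tubule at 6.69 ± 0.617%, among them. Erythroid cells ran from 0.809 to 13.2% by library.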
